A study of Rattus norvegicus with 2 samples.

Results

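Adrenomedullin, encoded by Adm, is a secreted peptide hormone that relaxes vessels and protects the endothelial barrier. Its receptor is the calcitonin receptor-like receptor (Calcrl), a G protein-coupled receptor that reaches the cell surface together with a receptor activity-modifying protein. Paired with the product of Ramp2 or Ramp3 it binds adrenomedullin, and paired with that of Ramp1 it binds calcitonin gene-related peptide, a vasodilator released from sensory nerves. Ackr3 encodes an atypical chemokine receptor that takes up Cxcl12 and also scavenges adrenomedullin. The 6 genes Adm, Calcrl, Ramp1, Ramp2, Ramp3 and Ackr3 were found by symbol among the 32623 genes of the count matrix, and each symbol occurred once. They were chosen by their levels across cell classes and libraries in these same data, so those levels and ratios are a description.

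Transcripts of single cells (10x Genomics) were counted in carotid arteries of SD (Sprague-Dawley) rats, labelled as 12 weeks old. The control library came from left arteries with no treatment, and the case library from right arteries of the same animals, 28 days after balloon injury, in which an inflated catheter strips the endothelium and stretches the wall. Each library pooled the arteries of 2 rats, and there was 1 library per group, so that injury and library cannot be told apart and no difference between the groups has a replicate check. No p-values are given, and every interval below is a 95% interval that covers counting error only.

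After filtering, 2742 of 3321 control barcodes and 4930 of 5656 case barcodes were kept, with 23974210 and 27054902 unique molecular identifiers (UMIs, 1 for each captured transcript) and a median of 8880 and 5156 per cell. The libraries shared 21 barcode sequences, 9 of them after filtering. The cells formed 15 clusters, of which 3 stayed unnamed with 27.9% of control and 4.46% of case cells, and cell types were named from marker genes. The vascular smooth muscle cell (VSMC)-like class held 1006 control and 2600 case cells, the fibroblast-like class 720 and 1513, the endothelial-like class 134 and 316 and the macrophage-like class 59 and 132. A small perineurial-like cluster, named from markers of the nerve sheath such as Itgb4, held 22 and 28 cells, and it also carried fibroblast markers at a summed level of 45000 and 23730 UMIs per 1000000, where fibroblast-like cells had 52100 and 41800. All 6 genes and their relatives had been left out of the genes used for clustering, so that no class was built from them. Levels are UMIs per 1000000 UMIs summed over the cells of a class (CPM).

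The promoter sequences of the ligand Adm and of Ramp1 and Ackr3, which were lower in the case library, are shown first, as the regulatory sequence nearest to the transcripts that were counted. They are the 250 bases before the annotated start, from the RefSeq table of build GRCr8, which differs from the build of the counts. Adm lies at chr1:174179950-174180199 on the plus strand, Ramp1 at chr9:99212866-99213115 on the plus strand and Ackr3 at chr9:98247104-98247353 on the plus strand. Both strands were searched for TATAAA, for ACGTG and GCGTG, which are core letters of hypoxia response elements, for TGACGTCA, the cyclic AMP response element, and for the CArG box of smooth muscle genes, which may itself contain TATAAA, and matches are in capitals.
Adm: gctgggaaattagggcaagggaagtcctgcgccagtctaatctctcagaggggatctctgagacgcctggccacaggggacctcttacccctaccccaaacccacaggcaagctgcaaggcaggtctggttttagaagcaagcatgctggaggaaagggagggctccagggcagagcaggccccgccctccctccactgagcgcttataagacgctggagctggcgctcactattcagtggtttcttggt
Ramp1: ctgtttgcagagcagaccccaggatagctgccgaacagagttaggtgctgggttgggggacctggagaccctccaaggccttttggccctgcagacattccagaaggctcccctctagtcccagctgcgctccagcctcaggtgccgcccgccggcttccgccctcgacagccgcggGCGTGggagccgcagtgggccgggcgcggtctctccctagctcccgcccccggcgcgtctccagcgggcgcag
Ackr3: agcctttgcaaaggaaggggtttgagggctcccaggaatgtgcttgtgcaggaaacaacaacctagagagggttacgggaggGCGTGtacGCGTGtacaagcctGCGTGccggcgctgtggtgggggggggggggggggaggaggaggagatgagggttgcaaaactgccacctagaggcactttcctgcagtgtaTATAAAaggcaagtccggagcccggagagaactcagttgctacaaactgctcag

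The Ackr3 window held TATAAA, which 12.9% of 33469 promoter windows of this length hold, and GCGTG at 3 places, which 25.9% hold at least once. The Ramp1 window held GCGTG at 1 place. None of these letters was in the Adm window. The Ramp3 window held GCGTG once and the Calcrl window none of the motifs, while Ramp2 had no entry. ACGTG is in 16.6% of the windows, TGACGTCA in 1.59% and the CArG box in 1.5%. A match is a string of letters only.

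Adm, the ligand, was found in fibroblast-like, endothelial-like and macrophage-like cells. Its level in endothelial-like cells was 429 CPM in the control library (interval 380 to 481) and 558 in the case library (521 to 596). In fibroblast-like cells it was 251 CPM (240 to 261) and 238 (228 to 249). In macrophage-like cells it was 109 CPM (81.8 to 142) and 321 (282 to 365), and in VSMC-like cells 48.4 (44.7 to 52.4) and 36.1 (33.1 to 39.3). In the control library the order was thus endothelial-like, fibroblast-like, macrophage-like and VSMC-like, with no overlap of neighbouring intervals among these 4 classes. The first place rested largely on cells that also carried fibroblast genes (mixed sub-cluster 4 below), with 154 of the 287 control endothelial UMIs. Without mixed cells the control endothelial level was 279 CPM on 121 UMIs, close to that of fibroblast-like cells. In the Gja5 sub-clusters described below it was 125 CPM, under the fibroblast level. In the case library macrophage-like cells came second, above fibroblast-like cells. Schwann-like cells had 89.9 and 45.7 CPM on only 11 and 14 UMIs, and perineurial-like cells 87.0 and 128 CPM on 23 and 16 UMIs, and in the control library both overlapped the interval of macrophage-like cells. Since fibroblasts were many, they held 67.4% of the control and 55.8% of the case UMIs of Adm, and endothelial-like cells 8.95% and 22.6%.

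Transcripts of one class are also found at a low level in others, and this background was measured from class markers. The level of 7 fibroblast markers in VSMC-like cells was 0.822% to 12.0% of that in fibroblast-like cells in the control library and 1.03% to 11.5% in the case library. The level of Adm in VSMC-like cells was 19.3% and 15.1% of that in fibroblast-like cells, above the whole range of the markers in both. In macrophage-like cells Adm reached 43.5% and 135% of the fibroblast level, where the markers reached at most 6.70% and 4.14%. The Adm signal of macrophage-like cells was thus higher than the share that fibroblast RNA gave for its markers.

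**Figure D1:**
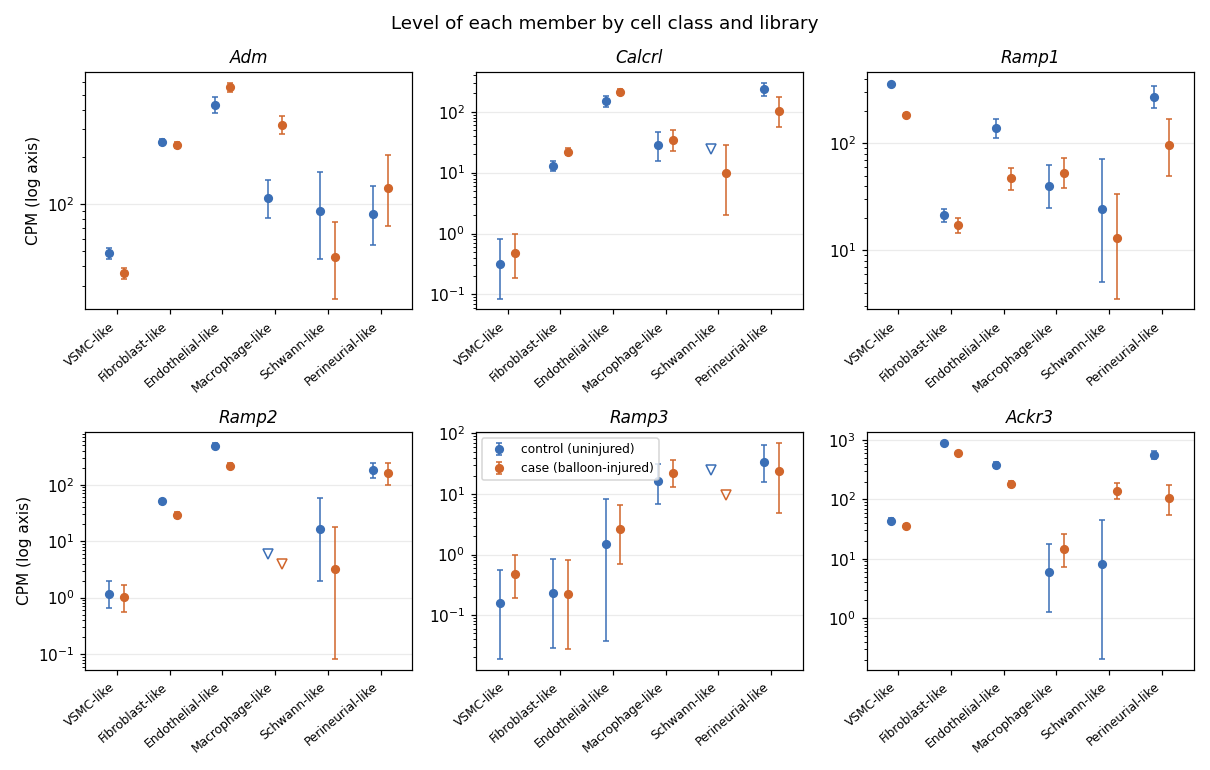
Level of the 6 genes in CPM on log axes by cell class in the control (blue) and case (orange) library. Bars are exact 95% Poisson intervals, and open triangles mark the limit that a count of 0 allows (3 UMIs). Calcrl sits near 0.3 to 0.5 CPM in VSMC-like cells, where Ramp1 is at 357 and 184 CPM.

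Calcrl, the receptor itself, was highest in endothelial-like and perineurial-like cells and close to 0 in VSMC-like cells. Its level in endothelial-like cells was 148 CPM in the control library (120 to 180) and 212 in the case library (189 to 236). In perineurial-like cells it was 235 CPM (180 to 301) on 62 UMIs and 104 (55.2 to 177) on 13 UMIs. The endothelial and perineurial intervals touched at their ends in the control library and were apart in the case library, so the order of these classes was not the same in both. Macrophage-like cells had 28.2 and 34.5 CPM and fibroblast-like cells 12.9 and 22.2. Among VSMC-like cells, 4 UMIs were counted in 1006 control cells and 7 in 2600 case cells, which is 0.31 and 0.47 CPM. This was 0.212% and 0.222% of the endothelial level, inside the range of 7 endothelial markers in the same cells (0% to 0.355% and 0.0577% to 0.648%), and is read as background. The endothelial-like class held 33.6% of the control and 56.3% of the case UMIs of Calcrl, and the 22 control perineurial-like cells alone held 21.0%.

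Ramp1, whose product turns Calcrl into the receptor of calcitonin gene-related peptide, was found mainly in VSMC-like cells of these arteries. It had 357 CPM in control VSMC-like cells (347 to 368) and 184 in case VSMC-like cells (177 to 191), and these cells held 89.0% and 89.7% of its UMIs. In perineurial-like cells it had 272 CPM (213 to 343) and 95.7 (49.4 to 167), and in endothelial-like cells 139 (112 to 170) and 47.0 (36.8 to 59.2). A small T cell-like cluster of 8 control and 19 case cells had 284 and 93.7 CPM, on only 12 and 6 UMIs. Fibroblast-like cells had 21.2 and 17.2 CPM, or 5.94% and 9.34% of the VSMC level, where 6 VSMC markers had 5.68% to 14.3% and 9.32% to 22.5%. This was not an even background. Of the 183 control and 152 case UMIs there, 104 and 125 were in sub-cluster 5, described below, which also carried VSMC markers. Ramp1 had 165 and 114 CPM in that sub-cluster. In endothelial-like cells Ramp1 was at 38.9% and 25.6% of the VSMC level, within the range of VSMC markers there (20.7% to 40.2% and 13.2% to 34.2%). The highest of these markers was Cald1 in both libraries, and their median was 23.7% and 15.8%, under the value of Ramp1. By the range alone, taken over the whole class with its mixed cells, Ramp1 cannot be told apart from background. It was not even over the endothelial sub-clusters described below. Ramp1 had 151 and 105 CPM in sub-cluster 3, where Myh11 had 173 CPM over both libraries. In sub-cluster 5 Myh11 had 267 CPM, and no Ramp1 UMI was counted in the 48 case cells. Mixed sub-cluster 6, with 3878 CPM of Myh11, had 218 and 94.2 CPM of Ramp1. The VSMC class thus had Ramp1 with almost no Calcrl or Ramp2, the latter at 1.18 and 1.01 CPM.

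Ramp2, whose product makes the adrenomedullin receptor with Calcrl, was highest in endothelial-like cells at 494 CPM in the control library (442 to 550) and 218 in the case library (195 to 243). Perineurial-like cells followed at 182 CPM (134 to 241) and 159 (97.4 to 246), the latter overlapping the endothelial interval. Fibroblast-like cells had 51.0 CPM (46.3 to 56.0) and 29.5 (26.0 to 33.3). No UMI of Ramp2 was counted in the 59 and 132 macrophage-like cells, which allows up to 6.05 and 3.98 CPM. Fibroblast-like cells, being many, held 51.5% of the control UMIs and 41.1% of the case UMIs, and endothelial-like cells 38.8% and 52.6%.

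Ramp3, the alternative partner in the adrenomedullin receptor, was rare, with 28 UMIs in all control and 34 in all case cells. Macrophage-like cells held 8 and 17 of these, or 16.1 CPM (6.97 to 31.8) and 22.6 (13.2 to 36.2), and perineurial-like cells 9 and 3, or 34.0 and 23.9 CPM. In the endothelial-like, fibroblast-like and VSMC-like classes it did not exceed 2.61 CPM, and a difference between the libraries was not detectable at this depth.

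Ackr3, the scavenging receptor, was a fibroblast transcript. It had 873 CPM in control fibroblast-like cells (853 to 893) and 615 in case fibroblast-like cells (599 to 632), which held 87.8% and 85.7% of its UMIs. Perineurial-like cells had 564 CPM (477 to 662) and 104 (55.2 to 177), and endothelial-like cells 384 (338 to 434) and 183 (162 to 206). Schwann-like cells had 1 UMI in 27 control cells, or 8.17 CPM (0.207 to 45.5), and 43 UMIs in 81 case cells, or 140 CPM (101 to 189). The 7 fibroblast markers in Schwann-like cells were higher in the case library too, at a summed 6106 and 14290 CPM, and their part in the Ackr3 value was not tested. VSMC-like cells had 44.0 and 36.0 CPM, which was 5.05% and 5.85% of the fibroblast level. This was within the range of fibroblast markers given above, so that by this measure it cannot be told apart from background. Ackr3 was not even over the VSMC-like clusters described below. Cluster 3 had 95.7 and 49.6 CPM, cluster 4 had 42.9 and 30.3 and cluster 1 had 29.6 and 25.1. Macrophage-like cells had 6.05 and 14.6 CPM.

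The share of cells with a transcript was compared in cells with at least 2000 UMIs, each thinned to 2000, since the libraries differed in depth, for VSMC-like cells by medians of 12770 and 5444 UMIs. Shallower cells were left out, which were 42 control and 58 case VSMC-like cells, 16 and 53 fibroblast-like cells, and 40 of 134 and 26 of 316 endothelial-like cells. Ramp1 was then detected in 50.2% of control VSMC-like cells (47.0% to 53.4%) and 29.7% of case VSMC-like cells (27.9% to 31.5%), against 91.6% and 56.8% before thinning. In fibroblast-like cells, where it is read as background, the thinned shares were 3.27% and 2.05%. Ackr3 was detected in 67.0% (63.4% to 70.5%) and 52.1% (49.5% to 54.7%) of fibroblast-like cells, against 9.34% and 6.65% of VSMC-like cells. Ramp2 was detected in 44.7% (34.4% to 55.3%) and 27.6% (22.5% to 33.1%) of endothelial-like cells and in at most 0.31% of VSMC-like cells. Calcrl was detected in 18.1% (10.9% to 27.4%) and 26.2% (21.2% to 31.7%) of endothelial-like cells, with overlapping intervals, and Adm in 27.0% and 24.7% of fibroblast-like cells, also overlapping. In endothelial-like cells Adm was in 5 cells with Calcrl and 35 without, of 94 in the control library, against 28 and 63 of 290. That share was lower in the case library, where its CPM was higher. Of these control cells, 1 with Calcrl and 25 without were in mixed sub-cluster 4, described below. At equal depth the lower case values of Ramp1, Ackr3 and Ramp2 were therefore seen in the share of cells as well as in CPM. For Ramp2 the direction was not the same before thinning. Before thinning its share of endothelial-like cells was higher in the case library. It was in 32 cells with Calcrl and 23 without, of 134 in the control library, against 80 and 73 of 316. The depth limit kept 34 of 68 control cells of a mixed sub-cluster (sub-cluster 4 below), where Ramp2 had 4 UMIs before thinning. The part of the cells left out was not tested. In the Gja5 sub-clusters described below the case share was lower before thinning too. There Ramp2 was in 25 cells with Calcrl and 21 without, of 51 in the control library, against 47 and 54 of 145.

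The injured and uninjured arteries were then compared within each class as the log2 ratio of case over control. A gene with a mean of at least 20 CPM was counted as higher or lower when its level differed by at least 1.5-fold and the interval of the ratio was on that side of 0. Since the 6 genes were chosen with their levels in these libraries known, the counts describe them and are no test. In endothelial-like cells 5 of the 6 genes reached 20 CPM, of which 3 were lower and none higher in the case library, where 21.1% of all 5023 genes were lower and 10.7% higher. These were Ramp1, 2.95-fold lower (log2 ratio -1.56, interval -2.03 to -1.10), Ramp2, 2.27-fold lower (-1.18, -1.40 to -0.96), and Ackr3, 2.10-fold lower (-1.07, -1.32 to -0.82). The level of Ramp1 lay within the range of VSMC markers in these cells given above, though above their median. For the class as a whole, whether its ratio was that of background was not tested. As mean CPM per cell, which weights all cells alike, the ratio of Ramp2 was -0.43 and under 1.5-fold, and with each library clustered alone it was -2.48. Calcrl had a log2 ratio of 0.52 (0.19 to 0.86) and Adm of 0.38 (0.18 to 0.58), both under 1.5-fold. The ratio of Adm turned to -0.53 as mean CPM per cell and to -0.052 after thinning. Scaled with TMM factors, which set the bulk of genes equal, the endothelial ratios were all higher by 0.26 and those of VSMC-like cells by 0.12, and the 3 genes had ratios below 0 in endothelial-like cells there too. In these cells the summed level of 6 VSMC markers was 6419 and 3307 CPM and that of 7 fibroblast markers 5615 and 2502, with every marker detected, so that both lists were lower in the case library together with the 3 genes. Their part was not tested beyond the values without mixed cells below.

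In VSMC-like cells 3 of the genes reached 20 CPM and 1 of them was lower, with 15.3% of 4770 genes lower and 6.35% higher. This was Ramp1, 1.95-fold lower (-0.96, -1.03 to -0.89), while Adm had -0.42 (-0.59 to -0.26) and Ackr3 -0.29 (-0.46 to -0.12). In fibroblast-like cells 3 genes reached 20 CPM and 1 was lower, with 13.3% of 4469 genes lower and 6.67% higher. This was Ramp2, 1.73-fold lower (-0.79, -1.02 to -0.57). Ackr3 was 1.42-fold lower (-0.50, -0.55 to -0.45), just under the limit, Adm had -0.07 (-0.16 to 0.01), and Calcrl, below 20 CPM, was 1.73-fold higher (0.79, 0.44 to 1.14). This direction turned within the clusters of the class, with 76.2 and 43.0 CPM in cluster 5 (-0.83, -1.18 to -0.46) and 1.37 and 1.14 CPM in cluster 2 (-0.27, -2.17 to 1.41), and with coarser clustering at resolution 0.4 the class ratio was -0.40. Cluster 5 held 15.1% of control and 52.6% of case fibroblast-like cells. In macrophage-like cells 1 of 3 genes was higher, with 10.7% of 4535 genes higher and 10.3% lower. This was Adm, 2.95-fold higher (1.56, 1.13 to 2.01), and the 10% of case macrophage-like cells with most Adm held 76.0% of its UMIs there. In these cells the 7 fibroblast markers summed to 2491 and 1502 CPM and the 7 endothelial markers to 14.1 and 39.9, with Cldn5, Sox17 and Emcn at 0 in both libraries. Over all genes the median ratio was -0.02 in macrophage-like, -0.17 in endothelial-like, -0.07 in fibroblast-like and -0.13 in VSMC-like cells.

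**Figure D2:**
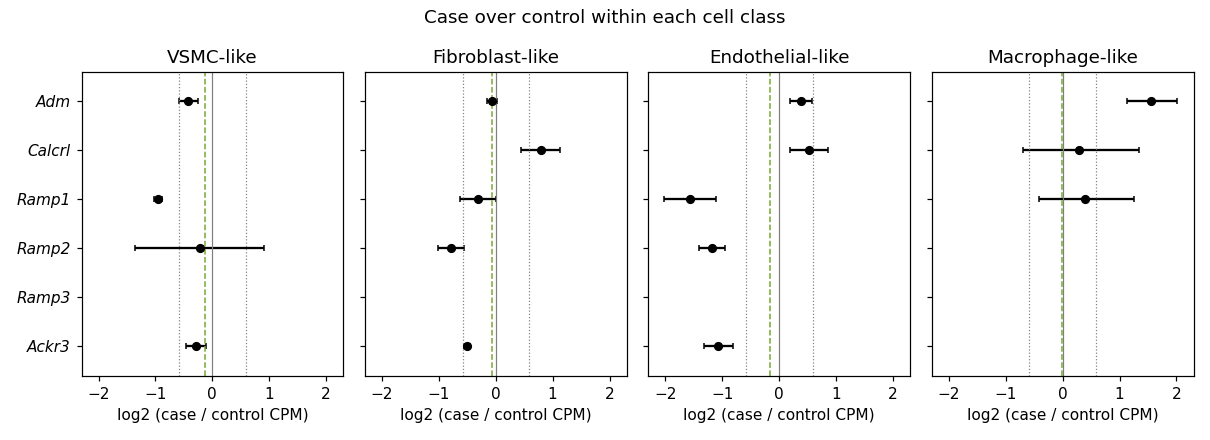
Log2 ratio of case over control CPM with its 95% counting interval for each gene with at least 30 UMIs in the 2 libraries together, in 4 cell classes. The dashed line is the median over all genes of the class and the dotted lines mark 1.5-fold. Ramp1, Ramp2 and Ackr3 lie below -1 in endothelial-like cells, and Adm lies above 1 in macrophage-like cells.

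Over all kept cells, with no classes, Adm had 134 CPM in the control and 140 in the case library (log2 ratio 0.07, -0.0027 to 0.13). Calcrl had 12.3 and 21.3 CPM (0.79, 0.58 to 1.00), Ramp1 214 and 113 (-0.92, -0.99 to -0.86), Ramp2 35.5 and 23.5 (-0.60, -0.75 to -0.45) and Ackr3 357 and 235 (-0.60, -0.65 to -0.56). These values also carry the different shares of the cell classes in the libraries.

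The classes were not made up alike in the libraries. Of control VSMC-like cells 82.8% were in cluster 4, while 54.0% of case cells were in cluster 1 and 42.1% in cluster 3. Ramp1 was compared within each cluster. In cluster 4 it had 366 CPM in the control and 204 in the case library (log2 ratio -0.84, -1.06 to -0.63), in cluster 1 299 and 205 (-0.54, -0.75 to -0.33) and in cluster 3 237 and 156 (-0.61, -0.89 to -0.31). It was thus lower in the case library in each cluster, by 1.46-fold to 1.79-fold, which is less than the 1.95-fold of the whole class.

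Endothelial-like cells split into 6 sub-clusters. Sub-clusters 1 and 3 carried Gja5, a gap junction gene of arterial endothelium, and held 51 control and 145 case cells. Of the other arterial genes listed, Gja4 and Bmx were also highest there, but Hey1 and Sema3g had at most 3.74 CPM. Mmrn1, listed for lymphatic endothelium, had 367 and 221 CPM in sub-clusters 1 and 3. Sub-cluster 2 carried Plvap and Emcn, genes of capillary and venous endothelium, and held 7 and 87 cells. Selp, from the same list, was lower there (155 CPM) than in sub-clusters 1 and 3 (262 and 222.5). Emcn was higher in sub-cluster 5 (342 against 270 CPM), and sub-cluster 2 also had 126 CPM of Prox1. The sub-clusters are therefore called by the genes they carried. Sub-cluster 5 carried Prox1, Lyve1 and Ccl21, genes of lymphatic endothelium, and held 1 and 48 cells. Sub-clusters 4 and 6 carried Col1a1 or Myh11 beside endothelial genes and are called mixed. Sub-cluster 4 held 68 of the 134 control cells, with a median of 2045 UMIs, and 9 of the 316 case cells, and sub-cluster 6 held 7 and 27. Their part in the endothelial results was measured by leaving them out.

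Among endothelial-like cells the Gja5 sub-clusters were the main site of Ramp2. It had 796 CPM in the control (710 to 891) and 375 in the case library (330 to 424), a log2 ratio of -1.09 (-1.33 to -0.84). In the same cells Ackr3 had 464 CPM (399 to 538) and 247 (211 to 288), a ratio of -0.91 (-1.22 to -0.60), and Ramp1 119 (87.4 to 159) and 62.2 (44.9 to 84.1), a ratio of -0.94 (-1.58 to -0.30). Ramp2 was lower in the case library in both of these sub-clusters, with 965 and 540 CPM in sub-cluster 3 and 451 and 267 in sub-cluster 1. Calcrl had 156 CPM (119 to 200) and 187 (156 to 222) and Adm 125 (91.8 to 165) and 111 (87.4 to 139), both with overlapping intervals. The 2 sub-clusters differed in Adm, with 261 and 167 CPM in sub-cluster 1 (log2 ratio -0.65, -1.27 to -0.00068) and 57.9 and 26.2 CPM in sub-cluster 3 (-1.14, -2.68 to 0.24), so that Adm was 1.57-fold lower within sub-cluster 1 while the ratio over both was -0.16. For Ramp1 neither sub-cluster alone passed the limits, at -0.69 (-2.09 to 0.86) in sub-cluster 1 and -0.52 (-1.28 to 0.22) in sub-cluster 3. Ramp3 had 1 and 2 UMIs in the Gja5 sub-clusters. Of the partner genes, only Ramp2 thus passed the limits in each of these 2 sub-clusters. The ratio of Ramp1 was below 0 in both as well, on fewer UMIs. Ramp1 had 7 and 14 UMIs in sub-cluster 1 and 39 and 28 in sub-cluster 3, where Ramp2 had 57 and 109, and 250 and 144.

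Adm had its highest level in the Plvap and Emcn sub-cluster. There it had 1722 CPM in the control library (1350 to 2166) on 73 UMIs of 7 cells and 1672 in the case library (1549 to 1802) on 684 UMIs of 87 cells. Calcrl was also higher there than in the Gja5 sub-clusters, at 472 CPM (288 to 729) and 332 (279 to 393). Ramp2, by contrast, had only 70.8 CPM (14.6 to 207) and 85.5 (59.6 to 119), and Ramp1 0 UMIs in the control library, which allows up to 70.8 CPM, and 9.78 CPM in the case library. Ackr3 also had 0 UMIs in the 7 control cells, and 122 CPM (90.7 to 161) in the case cells. These 87 cells were 27.5% of the case endothelial-like cells and held 80.1% of their Adm UMIs. In the control library the 7 cells held 25.4%, and mixed sub-cluster 4 held 53.7%.

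In the 48 case cells of the Prox1 and Lyve1 sub-cluster Adm had 136 CPM (81.7 to 212), Calcrl 171 (110 to 255), Ramp2 157 (98.5 to 238) and Ackr3 92.8 (49.4 to 159), with no UMI of Ramp1. The single control cell there gives no comparison. In mixed sub-cluster 4 the 68 control cells had 1004 CPM of Adm (852 to 1176), 411 of Ackr3 and 183 of Ramp1, with 58.7 of Calcrl and 26.1 of Ramp2. The 9 case cells had 364 CPM of Adm, 351 of Ackr3, 54.0 of Ramp1, 216 of Calcrl and 121 of Ramp2. These case levels rest on 4 to 27 UMIs each.

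**Figure D3:**
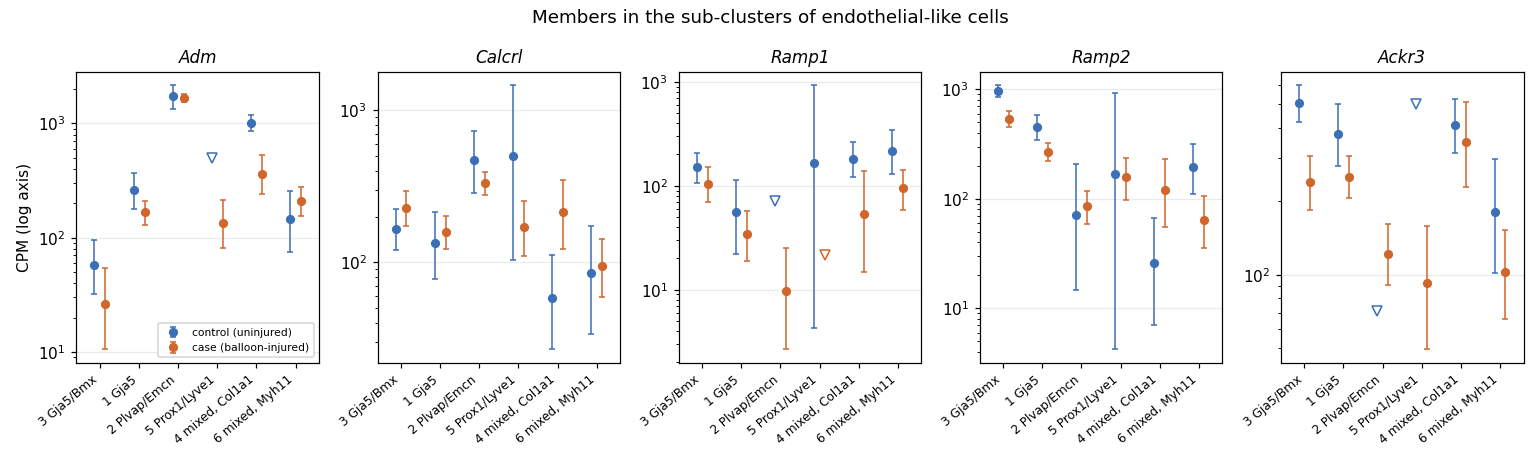
Levels of 5 of the genes in CPM on log axes in the 6 endothelial sub-clusters of the control (blue) and case (orange) library, with 95% Poisson intervals, and open triangles for the limit of a count of 0. Adm peaks in the Plvap/Emcn sub-cluster at 1722 and 1672 CPM, and Ramp2 in the Gja5/Bmx sub-cluster at 965 and 540 CPM.

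Without the mixed sub-clusters, 59 control and 280 case endothelial-like cells remained. Adm then had 279 CPM and 636 CPM, 2.28-fold higher in the case library (log2 ratio 1.19, 0.91 to 1.48), while within the Gja5 sub-clusters the ratio was -0.16 (-0.71 to 0.39) and within the Plvap and Emcn sub-cluster -0.04 (-0.39 to 0.33). The endothelial ratio of Adm therefore followed the cells that were counted. For Ramp2 the levels without mixed cells were 717 and 253 CPM (-1.50, -1.73 to -1.27), for Ackr3 413 and 188 (-1.13, -1.42 to -0.84), for Ramp1 108 and 37.6 (-1.53, -2.15 to -0.91) and for Calcrl 191 and 234 (0.29, -0.07 to 0.66). Summed over the class, Ramp2, Ackr3 and Ramp1 were lower with and without these cells. Within sub-clusters 1 and 3 the ratio of Ramp2 was -0.75 and -0.84, and in mixed sub-cluster 6 -1.59. In the Plvap and Emcn sub-cluster it was 0.27 (-1.39 to 2.62). It was 2.22 (0.38 to 4.37) in mixed sub-cluster 4, on 4 and 9 UMIs. Ackr3 had 0 and 50 UMIs in the Plvap and Emcn sub-cluster. The class ratios also carry the different shares of the sub-clusters, whose part was not tested.

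Calcrl and its partners were counted in the same cells. In the Gja5 sub-clusters 25 of 28 control cells and 47 of 53 case cells with a Calcrl UMI also had a Ramp2 UMI, against 1 and 1 with Ramp3 and 16 and 13 with Ramp1. Among cells without Calcrl, Ramp2 was found in 91.3% of control and 58.7% of case cells. After thinning to 2000 UMIs the numbers with Ramp2 were 9 of 13 and 17 of 31, against 80.6% and 47.5% of the cells without Calcrl. In the Plvap and Emcn sub-cluster of the case library only 20 of 60 cells with Calcrl had Ramp2, while 43 of them had Adm. Of its cells without Calcrl 14.8% had Ramp2 and 77.8% had Adm, so Adm was not more frequent beside Calcrl. Among the 22 control perineurial-like cells 14 had Calcrl, of which 11 had Ramp1 and 11 had Ramp2. Of those without Calcrl 75% had Ramp1 and 50% had Ramp2. Cells of a library are not replicates, and deeper cells are more likely to show both transcripts.

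The perineurial-like cluster was the single class in which all 6 genes were counted in both libraries at more than 20 CPM. For Ramp3 this was 34.0 and 23.9 CPM on only 9 and 3 UMIs, too few to place its case level above 20 CPM. In the case library Ackr3 was 5.44-fold lower there (log2 ratio -2.44, -3.39 to -1.63), Ramp1 2.85-fold lower (-1.51, -2.53 to -0.62) and Calcrl 2.26-fold lower (-1.18, -2.17 to -0.30), while Ramp2 had -0.19 (-1.02 to 0.59) and Adm 0.55 (-0.47 to 1.54). The 7 fibroblast markers of the cluster were lower in the case library as well, at the 45000 and 23730 CPM given above, and their part in these ratios was not tested. The case values rest on 12 to 20 UMIs for each of these 5 genes.

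Fibroblast-like cells split into 5 sub-clusters, and Calcrl was concentrated in 1 of them. Sub-cluster 4 had the most Gfpt2, a gene of hexosamine synthesis, and held 105 control and 341 case cells, or 14.6% and 22.5% of the class. It held 88.3% of the control and 77.2% of the case UMIs of Calcrl of the class, at 70.8 CPM (57.5 to 86.3) and 67.6 (57.3 to 79.2). The other sub-clusters had at most 18.1 CPM, and no Calcrl UMI was counted in the 252 and 355 cells of sub-cluster 1, which allows up to 0.842 and 1.30 CPM. Within sub-cluster 4 the log2 ratio of Calcrl was -0.07 (-0.44 to 0.31), so that the 1.73-fold higher value of the whole class was not seen within the sub-cluster that held most of the transcript.

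Adm and Ackr3 were also highest in this sub-cluster. Adm had 426 CPM (393 to 462) and 377 (352 to 403) there, and 115 to 270 CPM in the others in the control library and 132 to 218 in the case library. Ackr3 had 1333 CPM (1273 to 1396) and 757 (721 to 794), 1.76-fold lower in the case library (-0.82, -0.91 to -0.72). In sub-clusters 1, 2 and 3 its log2 ratio was -0.27, -0.45 and -0.56, and in sub-cluster 5, which also carried Myh11, it had 282 CPM (242 to 326) and 344 (310 to 381). Ramp2 was highest in sub-cluster 2 of the control library at 77.7 CPM (67.8 to 88.6), against 46.0 (35.4 to 58.7) in the case library. Ramp1 was found mostly in sub-cluster 5, which had 104 of the 183 control and 125 of the 152 case UMIs of the class, at 165 CPM (135 to 200) and 114 (94.9 to 136).

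**Figure D4:**
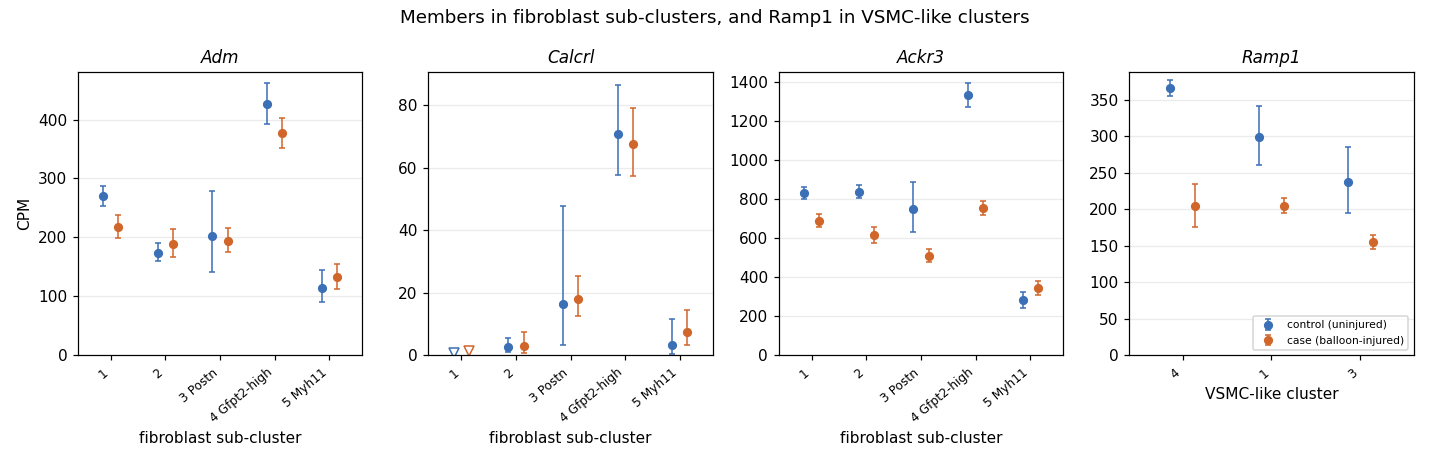
Levels in CPM of Adm, Calcrl and Ackr3 in the 5 fibroblast sub-clusters and of Ramp1 in the 3 VSMC-like clusters, in the control (blue) and case (orange) library, with 95% Poisson intervals. Calcrl stands at 70.8 and 67.6 CPM in the Gfpt2-high sub-cluster, and Ramp1 is lower in the case library in each of the 3 VSMC-like clusters.

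The other genes of the family were nearly absent. Calca and Calcb, which encode the forms of calcitonin gene-related peptide, the adrenomedullin paralog Adm2 and the calcitonin receptor Calcr each had at most 9 UMIs in any class of either library, and Iapp had none. Crcp, a component that links these receptors to signalling, had 22.7 and 20.3 CPM in VSMC-like cells (log2 ratio -0.17, -0.40 to 0.07). Of 8 genes of peptide processing and clearance, 6 were measured in VSMC-like cells with 1 higher and none lower, 4 in fibroblast-like cells with 1 higher, and 5 in macrophage-like cells with 2 higher, where 6.35%, 6.67% and 10.7% of all genes were higher. The VSMC gene was Pcsk1, a prohormone convertase, with 13.2 and 53.0 CPM (2.01, 1.77 to 2.26). Pam, the enzyme that amidates adrenomedullin, had 2051 and 1612 CPM in VSMC-like cells (-0.35), 1348 and 1122 in endothelial-like cells (-0.27) and 137 and 218 in macrophage-like cells (0.67, 0.25 to 1.10). In the Plvap and Emcn sub-cluster, where Adm was highest, Pam had only 189 and 281 CPM.

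Of the 8 genes of the Ackr3 axis, 4 were measured in endothelial-like cells, with 2 higher and 2 lower, where 10.7% of all genes were higher and 21.1% lower. Cxcr4, the signalling receptor of Cxcl12, had 4 UMIs or 5.97 CPM in control and 173 UMIs or 113 CPM in case endothelial-like cells (4.24, 2.86 to 6.13), of which 121 UMIs were in the Plvap and Emcn sub-cluster. Cxcl12 had 3 UMIs and 58 UMIs (3.08, 1.46 to 5.40). Both control counts are small, and only 7 control cells and 1 control cell were in the Plvap and Emcn and the Prox1 and Lyve1 sub-clusters, which held most of the case UMIs of Cxcr4. In macrophage-like cells Cxcr4 had 583 and 1699 CPM (1.54, 1.36 to 1.73). In fibroblast-like cells Cxcl12 had 44.3 and 69.7 CPM (0.65, 0.47 to 0.84), and Grk5, a receptor kinase, 60.7 and 27.3 (-1.15, -1.38 to -0.93).

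Of 16 genes of Gs and cyclic AMP signalling, the route by which Calcrl acts, 9 were measured in VSMC-like cells with 1 lower, and 8 in endothelial-like cells with 2 lower, where 15.3% and 21.1% of all genes were lower. Prkaca, a catalytic subunit of protein kinase A, was among these in both classes, with 61.7 and 40.0 CPM in VSMC-like cells (-0.62, -0.78 to -0.47) and 46.3 and 20.2 in endothelial-like cells (-1.19, -1.96 to -0.43). None of the 5 measured in fibroblast-like cells or the 5 in macrophage-like cells passed the limits. Adm is known to respond to hypoxia. Of 17 other hypoxia response genes, 5 were higher and 1 lower of 13 measured in fibroblast-like cells, 3 higher and 2 lower of 14 in VSMC-like cells, 2 higher and 3 lower of 13 in endothelial-like cells and 1 each way of 11 in macrophage-like cells. Of all genes 6.67% were higher and 13.3% lower in fibroblast-like cells, 6.35% and 15.3% in VSMC-like cells, 10.7% and 21.1% in endothelial-like cells and 10.7% and 10.3% in macrophage-like cells. Hk2, a hexokinase, had the highest ratio of these genes in fibroblast-like cells, with 1112 and 2384 CPM (1.10, 1.07 to 1.14). Adm had 251 and 238 CPM there. The lowest ratio was that of Ddit4 (-0.67, -0.75 to -0.58), and Vegfa had 0.15 (0.09 to 0.21). Dissociation stress genes were higher in none of the 4 classes and lower in 4 of 10 in macrophage-like, 3 of 10 in endothelial-like, 2 of 10 in fibroblast-like and 1 of 10 in VSMC-like cells, to be read against the shares of all genes just given. Among them Fos had 3776 and 2115 CPM in endothelial-like cells, where Ramp2 and Ackr3 were lower too, and its part in these results was not tested.

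For each gene the genes most alike in level were sought over 9 points, the named classes of each library with at least 50 cells, among 7289 genes. With Adm these were Adipor2 (Pearson r = 0.96), Pvr (0.96) and Rgl1 (0.95), with Calcrl Lmo2 (0.97), Itpr2 (0.96) and Cd93 (0.95), and with Ramp1 Pnkd (0.99), Manbal (0.97) and Dusp3 (0.97). With Ramp2 they were Heg1 (0.99), Lmo7 (0.99) and Igf2 (0.98), and with Ackr3 Cdc42ep2 (0.98), Klf4 (0.96) and Ccdc80 (0.96). The points share 2 libraries, and most of the likeness rests on which class a gene is found in.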

How the data were processed

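The authors deposited raw UMI counts per gene and barcode in 1 matrix of both libraries, made with Cell Ranger 3.1.0 per the file headers on build Rnor 6.0 per the labels' processing notes, which also name Seurat. The counts hold no normalization. Barcode suffixes carry no label, and each was assigned to the library for which the study's methods state the same number of barcodes. Cells were filtered to at most 20% mitochondrial UMIs, to log10 UMIs and genes no more than 2 SD from their library's mean, and to genes within 3 robust SD of a fit on UMIs. Cells of both libraries were scaled to 10000, with 2000 variable genes less the 7 of the adrenomedullin family and Ackr3 axis found among them, 30 principal components and 20 neighbours, and clustered by Leiden at 0.8 (scanpy 1.11.5, seed 1), or 0.8 and 0.5 with 15 components within endothelial-like and fibroblast-like cells. Sub-clusters, their names and the limits behind the names were decided after seeing the data: Gja5 above 100 CPM for arterial type, Col1a1 or Myh11 above 1000 CPM for mixed. A cluster took the cell type with the most markers, and more than 1, among its 10 leading genes, or else the type whose markers averaged at least 0.25 of their highest cluster level and 1.5 times the next type, in both cases with 3 markers in 10% of its cells. By the second rule it stayed unnamed if another type led among those 10 genes. It also did so if it was shallow for its library and had none of its own markers there. Cluster 11, with 131 control and 26 case cells, scored 0.77 for fibroblast against 0.214 for VSMC and stayed unnamed this way. Scrublet called 6 control and 0 case doublets, so it had not worked, and doublets were left in. Of the 6 called, 5 were in mixed endothelial sub-cluster 4, and whether its other cells are doublets was not tested. In an alternative the 60 control and 194 case cells with the highest scores were left out.

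Intervals were exact Poisson for CPM, Clopper-Pearson for shares and conditional binomial for ratios. A count of 0 allows 3 counts. On class sums simulated with Poisson error and 200 changed genes, 90% were recovered among 4890 genes in endothelial-like cells, and the interval covered the true ratio for 95.8%. This simulation held no spread between cells or animals. It therefore checks the computation of the interval and cannot show how well it covers in these data. TMM factors came from edgeR 4.0.16. The genes, lists and rules were chosen with earlier results of these data known: all 6 genes, the related genes of fixed lists with at least 20 CPM in a class, and the 3 most alike genes of each by correlation of log2(CPM + 10). Fos was picked from its list after its values were seen. A total of 14 alternatives was planned for ratios in some of the classes and 8 were added. The endothelial result of the list of processing and clearance genes is not reported here.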

Additional observations from a re-analysis of the deposited data

Results flagged for a closer look

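The summed level of Adm had ratios of opposite sign in different cell classes. In VSMC-like cells its log2 ratio of case over control was -0.42, in endothelial-like cells 0.38 and in macrophage-like cells 1.56, each with a counting interval that left out 0. The endothelial ratio was higher than that of VSMC-like cells by 0.80 and the macrophage ratio by 1.99. With 1 library per group the difference between classes was not tested. The endothelial ratio turned to -0.052 after thinning and to -0.53 as mean CPM per cell. It was -0.16 over the Gja5 sub-clusters, -0.65 and -1.14 within sub-clusters 1 and 3, and -0.04 within the Plvap and Emcn sub-cluster. Within mixed sub-cluster 4, which held 154 of the 287 control UMIs, it was -1.46 (-2.11 to -0.87), at 1004 and 364 CPM.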

How the results depend on the processing

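Each group was 1 library, so nothing here has a replicate, and counting intervals leave out the spread between animals. No paired analysis was possible because each group held 1 library pooled from both rats. Calcrl and Ramp3 counts in VSMC-like cells limit any ratio there, and the 7 control cells of the Plvap and Emcn sub-cluster limit that of Adm.

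Ratios were computed under 14 other settings listed at the outset and 8 added after seeing the data. The added settings each covered only some ratios. Ramp1 in VSMC-like cells had 18 alternative values in all, and Ramp2 in endothelial-like cells had 17. No ratio of the macrophage-like, Schwann-like or perineurial-like class was among them. The ratios of Adm in macrophage-like cells (1.56) and of Ackr3 in perineurial-like cells (-2.44) were therefore not checked this way. Ramp1 in VSMC-like cells, Ramp2 and Ackr3 in endothelial-like cells and Ackr3 in fibroblast-like cells stayed below 0 in each setting run. The log2 ratio of Ramp1 in VSMC-like cells was -1.12 with no cell filter, -0.86 with a per-cell marker gate, -0.84 with TMM scaling, and -0.54, -0.61 and -0.84 in clusters 1, 3 and 4. That of Ramp2 in endothelial-like cells was -1.45 with a mitochondrial limit of 10%, -1.54 without barcodes under 2000 UMIs, -1.51 at resolution 1.2, -1.46 with 15 components, -2.48 with each library clustered alone, -1.50 with the gate, -1.45 with the family genes kept, -0.92 with TMM, -0.43 as mean CPM per cell, where it no longer reached 1.5-fold, and -1.50 without mixed sub-clusters. That of Ackr3 was -1.96 in endothelial-like cells with each library clustered alone and -0.81 with TMM. In fibroblast-like cells it was -0.39 with no filter, -0.37 at resolution 0.4, -0.45 with TMM and -0.82 in the Gfpt2-high sub-cluster. Calcrl in endothelial-like cells was 0.89 as mean CPM per cell.

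Adm in endothelial-like cells changed sign. It was 1.27 with the 10% limit, 1.21 without shallow barcodes, 1.17 at resolution 1.2, 1.21 with 15 components, 1.235 with separate clustering, 0.99 with the gate, 1.21 with the family genes kept, 0.64 with TMM and 1.19 without mixed sub-clusters, but -0.53 as mean CPM per cell, -0.052 after thinning and -0.16 in the Gja5 sub-clusters. The cause was not tested beyond the values by sub-cluster. In fibroblast-like cells Adm was -0.36 with no filter, -0.40 at resolution 0.4 and -0.18 both in the Gfpt2-high sub-cluster and without it. Calcrl there reversed to -0.40 at resolution 0.4 and to -0.068 in the Gfpt2-high sub-cluster, and was 1.14 with no filter, 0.20 with the gate and 1.92 without that sub-cluster. The cause of the reversal at resolution 0.4 was not tested. At a limit of 5 CPM, genes lower in VSMC-like cells numbered 1298 against 732, and with no limit 1812. Genes higher there numbered 472 and 808 against 303. In fibroblast-like cells 568 and 906 were higher against 298, and 1138 and 1441 lower against 593. A lower limit lets in more genes than the 4770 in VSMC-like and 4469 in fibroblast-like cells at 20 CPM, so these counts are not shares.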
